A study of Caenorhabditis elegans with 8 samples.

Results

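The ribosomal protein genes of *Caenorhabditis elegans* were followed in mRNA-seq libraries of L4 larvae, *mut-16* mutant and wild type, grown at 25ºC or 20ºC. A gene was taken as a member when its sequence name mapped, in the WBcel235 annotation, to a gene name that starts with *rpl-* or *rps-* and a number, or with *rla-*. This gave 81 genes among the 46445 gene names counted: 47 *rpl* genes for proteins of the large (60S) subunit, 31 *rps* genes for proteins of the small (40S) subunit, and 3 *rla* genes for the P-proteins of the large subunit stalk. The rule goes by gene name and uses no measured value. All 81 passed the low-count filter and were tested together with 13972 genes in all.

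Each cytoplasmic ribosome is built from ribosomal RNA and one copy of most of these proteins, with the acidic P-proteins present in pairs on the stalk that recruits elongation factors. Cells make the proteins in matched amounts, their mRNAs are short and rank among the most abundant in a growing animal, and the class is often used as a reference in expression measurements. The study itself normalized its qRT-PCR to *rpl-32*, and so too its mRNA-seq comparisons of L4 with adult animals. It described the level of *rpl-32* as comparable between wild type and mutants over both stages.

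MUT-16 is the scaffold of the *mutator* complex, which amplifies small interfering RNAs in the germline, and the study asked how elevated temperature and loss of *mut-16* change gene expression at the stage of sperm formation. The groups were *mut-16(pk710)* mutants (strain NL1810) at 25ºC, the same mutants at 20ºC, wild-type N2 at 25ºC and wild-type N2 at 20ºC, with 2 libraries in each of the 4 groups and 8 in all. Synchronized larvae were grown on plates until the L4 stage, which took roughly 39 h at 25ºC but 56 h at 20ºC from plating, and poly(A)-selected RNA of whole animals was sequenced. The time in culture therefore differs with temperature and the effects of both cannot be told apart. In whole animals, fewer cells of a type and less RNA per cell cannot be told apart either. The labels number the libraries of a group as replicates and the methods call them biological. They do not say whether each came from a culture of its own, so p-values measure the spread between these libraries.

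The 8 libraries held between 9914054 and 13227929 counts, with 9.83% to 14.3% of them on ribosomal RNA genes. The mutated gene, *mut-16*, had 7.19 and 7.81 CPM (counts scaled to library size) in mutants at 25ºC and 5.46 and 7.41 CPM in mutants at 20ºC, against 24.3 and 22.6 CPM in N2 at 25ºC and 26.0 and 26.2 CPM in N2 kept at 20ºC. The log2(fold change) of *mut-16* was -1.64 ± 0.18 (SE) at 25ºC and -2.001 ± 0.18 at 20ºC (adjusted p = 3.41e-05 and 1.60e-05). Unless another scaling is named, values are scaled by TMM (trimmed mean of M-values), a gene counts as called when its adjusted p in edgeR's quasi-likelihood test is at most 0.05, and an error given after a log2(fold change) is its standard error.

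Per unit of length, the class was among the most abundant in the animal. Levels between genes were compared in TPM (counts per exon length, scaled to the same sum in each library, without ribosomal RNA). The median member averaged 4099 TPM over the 8 libraries, 76 of the 81 members reached 1000 TPM, and 72 were among the 100 most abundant of all genes. The medians were 3852 TPM for large-subunit genes, 4179 TPM for small-subunit genes and 4731 TPM for the 3 P-protein genes. The highest members were *rpl-41.2* (14902 TPM, the first of all genes), which encodes the smallest ribosomal protein, then *rpl-38* (7415 TPM), *rps-23* (6988 TPM), which encodes a protein of the decoding centre, *rpl-39* (6872 TPM), whose product lines the exit tunnel, and *rps-25* (6549 TPM).

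**Figure D1:**
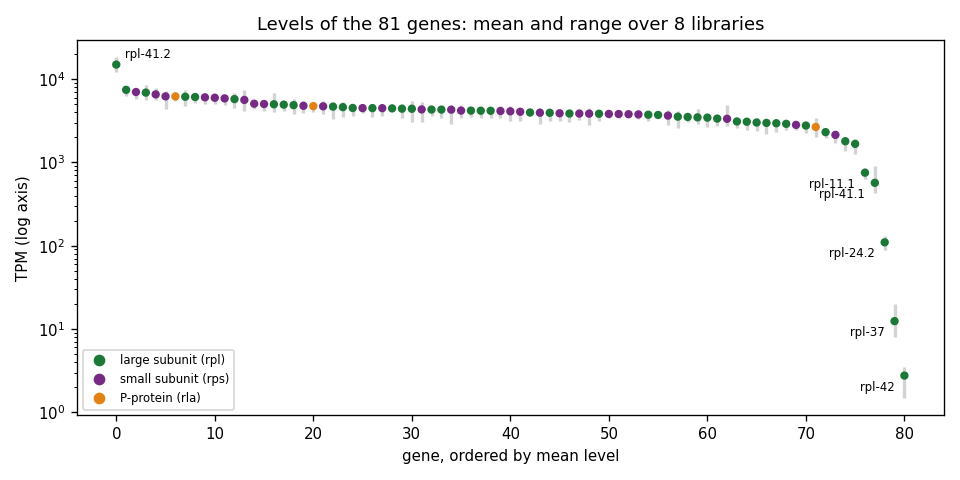
Mean level of each of the 81 genes in TPM on a log axis, ordered from high to low, with a grey line from the lowest to the highest of the 8 libraries and colours for large-subunit, small-subunit and P-protein genes. The 76 genes above 1000 TPM form an even row, and *rpl-11.1*, *rpl-41.1*, *rpl-24.2*, *rpl-37* and *rpl-42* lie below it.

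The 5 members under 1000 TPM all belonged to the large-subunit names: *rpl-11.1* (751 TPM), *rpl-41.1* (568 TPM), *rpl-24.2* (109.8 TPM), *rpl-37* (12.4 TPM) and *rpl-42* (2.76 TPM). The *rpl-42* row held only 13 to 27 counts in a library. Of the suffixed pairs, *rpl-11.2* had 2946 TPM against 751 TPM for *rpl-11.1*, *rpl-24.1* had 4598 TPM, while *rpl-25.1* (1792 TPM) and *rpl-25.2* (1666 TPM) were nearly level. *rpl-24.2* is related to a factor that helps to assemble the large subunit rather than to the mature subunit protein.

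For 3 members the level depended on how reads were divided between genes. The counts of *rpl-41.1* (WBcel235, chromosome I, 4789190 to 4789592, forward strand) and of its neighbour *rpl-41.2* (chromosome I, 4790292 to 4790642, forward strand) were fractional in all 8 libraries, and their sum was whole in each, within 0.01. *rpl-41.1* received between 3.22% and 5.501% of that sum. In the same way *rpl-37* (chromosome III, 3528642 to 3528917) added up to a whole number in every library with W01D2.1 (chromosome II, 14815518 to 14816140), a protein-coding gene that has no *rpl* name in the annotation and is no member. W01D2.1 held 16385 to 24269 counts and *rpl-37* held 23.8 to 51.9 counts. The row named *rpl-37* thus carried between 0.136% and 0.270% of the summed counts of both genes. Values of *rpl-37*, *rpl-41.1* and *rpl-41.2* taken singly are therefore uncertain. Fractional counts were also present for *rpl-2*, *rpl-7A*, *rla-1* and *rla-0*, without a single partner that made them whole.

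The members were spread over all 6 chromosomes, but unevenly. Chromosome I held 25 of the 81 (30.9% of members against 14.4% of protein-coding genes), chromosomes III and IV held 18 each, chromosome II held 10, chromosome V held 8 (9.88% against 25.0%) and the X chromosome held 2 (2.47% against 13.7%). Those on the X chromosome were *rpl-25.1* and *rpl-11.2*. Their exon lengths ran from 236 to 1456 bases with a median of 530 bases. For 11 members the annotation has an overlapping protein-coding gene or pseudogene on the opposite strand, *rpl-32* among them, and the strand setting of the counting is not given in the sources used here.

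Taken as a class, ribosomal protein mRNA made up between 14.4% and 19.1% of the counts of a library. At 25ºC the share was 18.04% and 18.03% in *mut-16* mutants, against 18.6% and 19.1% in wild type. At 20ºC it was 18.5% and 14.4% in *mut-16* mutants, against 16.03% and 16.1% in wild type. The mean was 18.04% ± 0.0108 in mutants and 18.8% ± 0.342 in wild type at 25ºC, and 16.5% ± 2.87 in mutants and 16.1% ± 0.0769 in wild type at 20ºC (SD, n = 2 each). The 2 wild-type groups did not overlap, and the replicates of the mutants at 20ºC enclosed the values of the mutants at 25ºC. At this depth the 95% Wilson interval of a share was at most 0.0483 percentage points wide, which covers counting error only. As a share of TPM the class took 35.0% and 35.0% in mutants at 25ºC and 35.2% and 30.1% in mutants kept at 20ºC, against 35.4% and 34.9% in N2 at 25ºC and 31.6% and 31.4% in N2 kept at 20ºC.

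**Figure D2:**
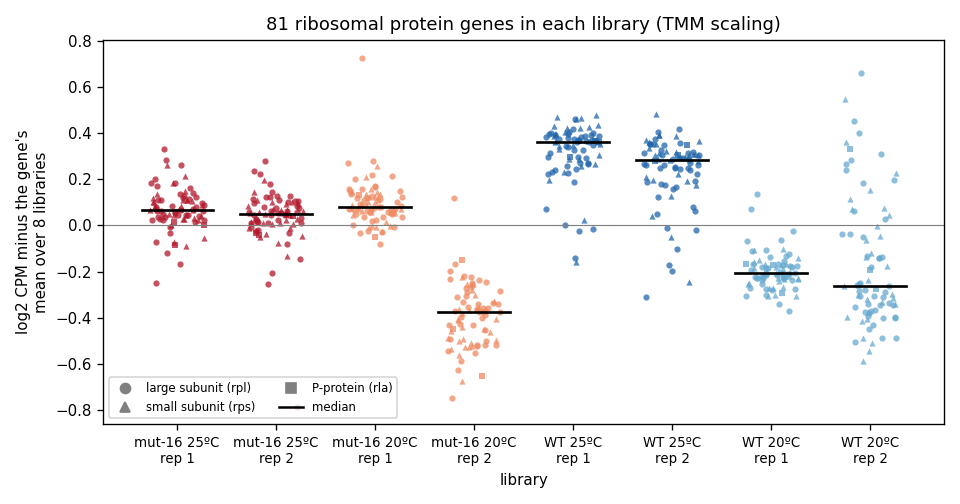
Log2 CPM of each of the 81 genes minus its own mean over the 8 libraries, by library, with circles for large-subunit, triangles for small-subunit and squares for P-protein genes and a black line at the median. The medians of wild type at 25ºC lie highest (0.36 and 0.28), those of wild type at 20ºC (-0.21 and -0.26) and of the second mutant library at 20ºC (-0.38) lie lowest.

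Most members moved together from library to library, but not between the 2 wild-type libraries at 20ºC. Measured as the log2 CPM of each gene minus its own mean over the 8 libraries, the median member stood at 0.07 and 0.05 in mutants at 25ºC, 0.08 and -0.38 in mutants at 20ºC, 0.36 and 0.28 in wild type at 25ºC, and -0.21 and -0.26 in N2 kept at 20ºC. In the second mutant library at 20ºC only 1 of the 81 members was above its own mean, against 70 in the first. In the first wild-type library at 25ºC 77 were above it. In wild type at 20ºC 2 were above it in the first library and 20 in the second. The highest of a member's 8 values fell in the first wild-type library at 25ºC for 58 members and in the second for 11. It fell in the second wild-type library at 20ºC for 7. The lowest fell in the second mutant library at 20ºC for 51 members and in the second wild-type library at 20ºC for 27.

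The replicates agreed closely at 25ºC, lay apart in mutants at 20ºC and split by member in wild type at 20ºC. The median absolute difference at 20ºC was 0.48 in mutants (0.24 over all genes) and 0.18 in wild type (0.25 over all genes). Second minus first replicate, the median member differed by -0.03 in mutants at 25ºC and by -0.08 in wild type at 25ºC on the log2 scale. In mutants at 20ºC the median difference was -0.48 and 80 of 81 members were lower in the second library, *rpl-42* being the exception, whereas the median over all 13972 genes was 0.00. In wild type at 20ºC the median difference was -0.08, but the members split: 49 were lower in the second library, down to -0.38 for *rps-0*, and 32 were higher, up to 0.82 for *rpl-27*. The next largest of these were *rps-2* (0.75), *rpl-37* (0.74), *rpl-41.1* (0.72), *rps-15* (0.66) and *rla-2* (0.63), of which *rps-15* was chosen for mention after its values were seen.

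**Figure D3:**
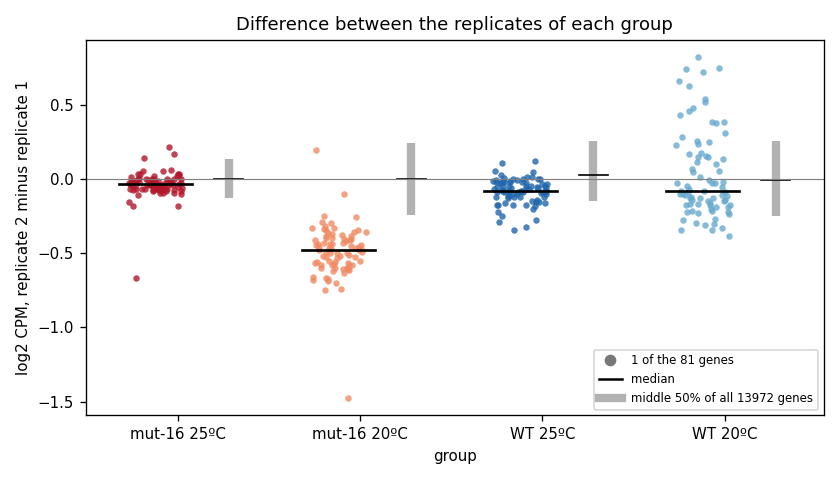
Log2 CPM of replicate 2 minus replicate 1 for each of the 81 genes in each group, with a black line at the median and a grey bar over the middle 50% of all 13972 genes. In mutants at 20ºC the cloud lies below 0 (median -0.48), and in wild type at 20ºC it stretches from -0.38 to 0.82.

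Transcript length moved with the replicate difference in some groups, but not always in the same direction. Across the 81 members, Spearman's rho between exon length and the difference of the replicates was -0.01 for mutants and 0.50 for wild type at 25ºC, and 0.63 for mutants and -0.30 for wild type at 20ºC, so in the second mutant library at 20ºC the shorter members were lower. Across the 13938 tested genes with a length it was 0.17, 0.05, 0.47 and -0.28 in the same order. These are descriptions across genes that share their libraries. The second mutant library at 20ºC also held more counts of 8 genes that mark moulting (2203 RPM, against 1377 in the first). RPM are counts over the plain library total. The sum of 8 muscle genes was higher too (12134 RPM, against 10198), as were those of the germline, intestine, neuron, hypodermis and vitellogenin lists. Sums of sperm genes (1106 RPM, against 1337) and oocyte genes (307, against 324) were lower. Under TMM the median gene differed by 0.43 for moulting and 0.27 for muscle, but by -0.35 for sperm and -0.25 for oocyte genes. The part of length or of stage in the low ribosomal protein values was not tested.

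In wild-type animals, most ribosomal protein genes were higher at 25ºC than at 20ºC. Of the 81 members 51 were called higher and none lower, where 11.1% of all genes tested were called higher and 9.62% lower. The 51 were 29 large-subunit genes, 20 small-subunit genes and 2 P-protein genes. The change was modest and differed between members. Their median log2(fold change) was 0.54 (middle 50% of members 0.32 to 0.62), against 0.00 over all genes. The members ranged from -0.45 to 0.81, with 7 below 0. None of the 81 passed an absolute log2(fold change) of 1 as well, which 5.3% of all genes did upward and 4.19% downward. At an unadjusted p of at most 0.05, 59 were higher (16.9% of all genes) and none lower (15.7%). In 67 of the 81 both libraries at 25ºC lay above both at 20ºC, as in 29.2% of all genes.

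**Figure D4:**
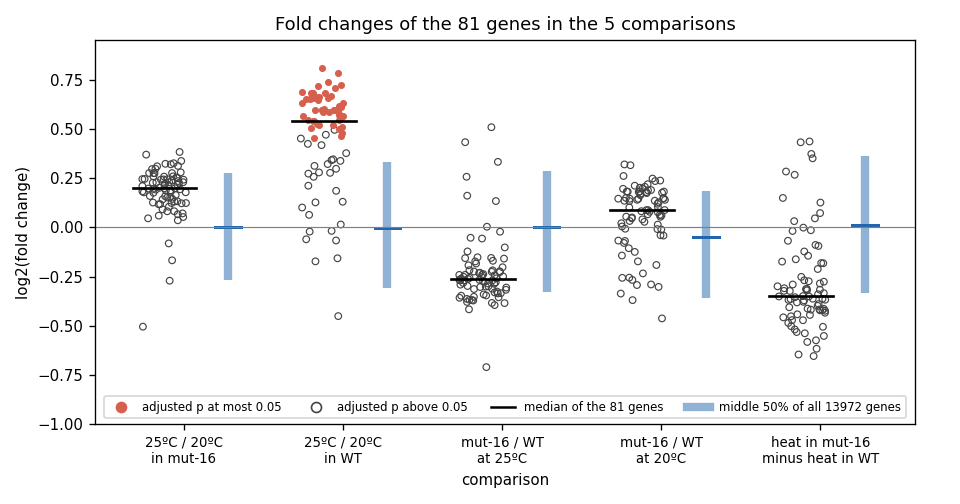
Log2(fold change) of the 81 genes in the comparisons of temperature within each genotype, of genotype at each temperature, and in the difference of the temperature effects, filled where adjusted p was at most 0.05. Black lines are medians of the 81 genes, blue bars the middle 50% of all 13972 genes, and filled points appear in wild type at 25ºC against 20ºC only.

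The smallest adjusted p-values were found on both subunits. *rpl-2*, whose product lies near the catalytic centre of the large subunit, had 4585 and 4525 CPM at 25ºC against 2931 and 2742 CPM at 20ºC, a log2(fold change) of 0.68 ± 0.13 (adjusted p = 0.00262). *rps-7*, a small-subunit protein gene, had 3604 and 3883 CPM against 2363 and 1904 CPM (0.81 ± 0.16, adjusted p = 0.00264), the largest change of the class. Its 2 libraries at 20ºC were further apart than those at 25ºC, yet the groups were well separated.

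*rps-0*, which encodes a protein at the cleft between head and body of the small subunit, had 4639 and 4454 CPM at 25ºC against 2984 and 2290 CPM at 20ºC (0.79 ± 0.16, adjusted p = 0.00293). *rpl-24.1*, a gene for a protein at the subunit interface, had 3028 and 3030 CPM against 1980 and 1696 CPM (0.72 ± 0.15, adjusted p = 0.00319). *rpl-5*, whose product carries 5S ribosomal RNA into the large subunit, had 3629 and 3569 CPM against 2418 and 1997 CPM (0.71 ± 0.14, adjusted p = 0.00341). In all of these genes the second library at 20ºC was the lower of the pair.

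The P-protein genes did not all pass. *rla-0*, for the stalk base, had 5518 and 5563 CPM at 25ºC against 4007 and 3718 CPM at 20ºC (0.52 ± 0.12, adjusted p = 0.00858). *rla-1*, for an acidic P-protein, had 3228 and 3193 CPM against 2225 and 2190 CPM (0.54 ± 0.16, adjusted p = 0.0310). *rla-2*, for another acidic P-protein, had 1411 and 1329 CPM against 892 and 1377 CPM, so that its groups overlapped (0.27 ± 0.22, adjusted p = 0.438).

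Among the genes that share a number, *rpl-25.1* and *rpl-25.2* were both called higher (0.66 and 0.63, adjusted p = 0.00626 and 0.00851), as were *rpl-7* and *rpl-7A* (0.66 and 0.59, adjusted p = 0.00664 and 0.00668), which share a number but encode unlike proteins. *rpl-11.2* was called higher (0.60 ± 0.17, adjusted p = 0.0207), while its paralog *rpl-11.1* had 0.28 ± 0.15 (adjusted p = 0.238). *rpl-24.2*, paralog of *rpl-24.1*, had 58.6 and 54.6 CPM at 25ºC against 54.2 and 49.2 CPM at 20ºC (0.13 ± 0.15, adjusted p = 0.614). Whether the paralogs of a pair differed in their response was not tested. The sum of *rpl-41.1* and *rpl-41.2* was 5165 and 4091 CPM against 3918 and 4852 CPM, and overlapped.

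The reference gene of the study's qRT-PCR, *rpl-32* (chromosome II, 9056497 to 9057085, reverse strand), had 2421 and 2291 CPM in wild type at 25ºC against 1782 and 1848 CPM in wild type at 20ºC. Both libraries at 25ºC were higher, the log2(fold change) was 0.38 ± 0.18, and the gene was not called (adjusted p = 0.160). Divided by the plain library total it had 2077 and 2117 RPM against 1914 and 1926 RPM. In *mut-16* mutants it had 2204 and 2186 CPM at 25ºC against 2272 and 1412 CPM at 20ºC (0.25 ± 0.18, adjusted p = 0.408). Between genotypes its log2(fold change) was -0.10 ± 0.18 at 25ºC and 0.02 ± 0.18 at 20ºC (adjusted p = 0.746 and 0.962). A p that misses the threshold does not show that its level was equal.

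Among the 30 members that were not called in wild type, 27 were higher in the second library at 20ºC than in the first (median difference 0.30), against 5 of the 51 called (median -0.14). This is a description, since those 2 libraries also enter the comparison. The members with the lowest log2(fold change) were *rpl-41.1* (-0.45 ± 0.22), *rpl-36.A* (-0.17 ± 0.17), *rps-24* (-0.16 ± 0.16), *rpl-27* (-0.07 ± 0.23), *rpl-29* (-0.06 ± 0.19), *rps-2* and *rps-25* (both -0.02), with adjusted p between 0.174 and 0.969. *rpl-27* is an example: it had 2191 and 2069 CPM at 25ºC against 1612 and 2850 CPM at 20ºC, so that one library at 20ºC lay below and the other above both at 25ºC. *rps-2*, for a protein at the mRNA entry channel, showed the same pattern with 3548 and 3410 CPM against 2626 and 4420 CPM.

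How many genes were called in wild type rested on single libraries, while the median change did not. Without the second wild-type library at 20ºC 12 members were called higher (7.97% of all genes), and without the first 43 higher (11.5%) and *rpl-41.1* lower (10.6%). Without the first library at 25ºC 9 were called higher (6.16% of all genes), and without the second 28 (7.48%). The median log2(fold change) stayed between 0.51 and 0.60 over these 4 fits. In these fits the single remaining library is assumed to vary like the other groups. DESeq2 called 53 members higher (6.45% of the genes in its fit), all 51 among them.

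In *mut-16* mutants none of the 81 members was called in either direction between 25ºC and 20ºC by edgeR's quasi-likelihood test. Of all genes, 7.71% were called higher and 4.47% lower. At an unadjusted p of at most 0.05, 1 member was higher (*rpl-2*) and none lower, where 14.2% and 11.6% of all genes were, and DESeq2 also called none. The median log2(fold change) was 0.20, with 77 of 81 members above 0, against 0.00 over all genes. In 23 members both libraries at 25ºC lay above both at 20ºC, as in 30.2% of all genes, and in *rpl-42* both lay below (28% of all genes).

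The value of this comparison was set by the 2 mutant libraries at 20ºC. *rpl-2* had 3988 and 3841 CPM at 25ºC against 3459 and 2813 CPM at 20ºC (0.32 ± 0.13, adjusted p = 0.145). *rps-7* had 2990 and 2982 CPM against 2916 and 2150 CPM (0.24 ± 0.16, adjusted p = 0.383). *rla-0* had 4507 and 4624 CPM against 4342 and 4049 CPM (0.12 ± 0.12, adjusted p = 0.586). In each of these genes both libraries at 20ºC lay below both at 25ºC, and the second was the lowest. They belong to the 23 members without overlap in this direction (30.2% of all genes), whereas in 57 members the groups overlapped. Against the first mutant library at 20ºC alone the median member differed by 0.00 and -0.03 (the libraries at 25ºC in turn), and against the second by 0.48 and 0.43, with 80 of 81 members higher.

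Leaving out one of these libraries accordingly turned the result. Without the first mutant library at 20ºC 40 members were called higher at 25ºC (29 of them among the 51 called in wild type), where 5.64% of all genes were, and the median was 0.45. Without the second library none was called and the median was -0.02. *rpl-32* had a log2(fold change) of 0.64 (adjusted p = 0.00586) without the first library and -0.06 (adjusted p = 0.851) without the second.

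At 25ºC, ribosomal protein genes tended to be lower in *mut-16* mutants than in wild type, by an amount that was not called for single genes. None of the 81 was called by edgeR, where 7.68% of all genes were called higher and 12.5% lower. At an unadjusted p of at most 0.05, 2 members were higher and 15 lower, where 14.3% and 18.1% of all genes were. DESeq2 called 1 higher (*rpl-36.A*) and none lower, where 4.05% and 6.82% of the genes in its fit were. The median log2(fold change) was -0.26, with 74 of 81 below 0, against 0.00 over all genes. In 71 members both mutant libraries lay below both wild-type libraries, as in 33.9% of all genes. These wild-type libraries are those of the comparison with 20ºC above, so the comparisons are not independent.

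The fit decided the calls. In a model of only the 4 libraries at 25ºC, where the replicates agreed closely, 56 members were called lower and 3 higher (18.4% and 13.5% of all genes). Without the first mutant library at 20ºC, which enters the spread alone, 20 were called lower and 2 higher (12.1% and 7.59% of all genes), and without the second 2 lower and 2 higher (11.3% and 8.69%). Leaving out either wild-type library at 20ºC, 2 were called higher and none lower (11.8% and 13.1%). In the model of all 8 libraries *rpl-7A* had 2313 and 2408 CPM in mutants against 3015 and 3023 CPM in wild type (-0.36 ± 0.13, adjusted p = 0.0812). *rps-0* had 3604 and 3607 CPM against 4639 and 4454 CPM (-0.33 ± 0.16, adjusted p = 0.156), and *rla-1* had 2537 and 2434 CPM against 3228 and 3193 CPM (-0.37 ± 0.16, adjusted p = 0.133). In all 3 genes the groups were apart by more than the replicates.

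A few members stood on the other side. *rpl-36.A*, a large-subunit protein gene, had 1993 and 1866 CPM in mutants at 25ºC against 1438 and 1276 CPM in wild type at 25ºC (0.51 ± 0.17, adjusted p = 0.0502). *rps-24*, a small-subunit protein gene, had 1992 and 1902 CPM against 1486 and 1400 CPM (0.43 ± 0.16, adjusted p = 0.0703). *rpl-29* had 1504 and 1465 CPM against 1243 and 1116 CPM (0.33 ± 0.19, adjusted p = 0.249). With *rpl-24.2*, *rpl-27* and *rps-25* they made up the 6 members whose mutant libraries both lay above both wild-type libraries, as in 33.4% of all genes. *rpl-36.A*, *rps-24* and *rpl-29* were called higher in mutants in the model of 4 libraries and under total-count scaling. *rps-24* and *rpl-29* were chosen for mention after their values were seen.

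At 20ºC no member was called between *mut-16* mutants and wild type, where 2.68% of all genes were called higher and 5.75% lower. At an unadjusted p of at most 0.05, 1 was higher (*rpl-5*) and 1 lower (*rps-2*), where 8.37% and 14.3% of all genes were, and DESeq2 called none. The median log2(fold change) was 0.09 with 58 of 81 above 0, against -0.05 over all genes. The groups overlapped in 78 members: both mutant libraries were higher for *rla-0* and *rpl-5* (19.2% of all genes) and both were lower for *rpl-42* (27.4%). *rpl-5* had 3049 and 2445 CPM in mutants against 2418 and 1997 CPM in wild type (0.32 ± 0.14, adjusted p = 0.211). Set against wild type, the first mutant library was higher (medians 0.29 and 0.34 against each wild-type library) and the second lower (-0.18 and -0.13), so the direction of the class turned with the library. Without the first mutant library the median was -0.17, and without the second it was 0.37. Without the first wild-type library the median was 0.18, and without the second 0.12.

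The difference between the temperature effects of the genotypes was tested as the interaction, the change in mutants minus the change in wild type. No member was called, where 1.59% of all genes were called higher and 1.5% lower. At an unadjusted p of at most 0.05 none was higher and 18 were lower, where 10.4% and 9.04% of all genes were. DESeq2 called 2 lower (*rps-0* and *rpl-5*), where 1.48% of the genes in its fit were. The median was -0.35, with 70 of 81 below 0, against 0.01 over all genes. *rpl-5* had the smallest adjusted p (-0.65 ± 0.20, adjusted p = 0.104), followed by *rps-0* (-0.65 ± 0.22, adjusted p = 0.124). The median was -0.06 without the first mutant library at 20ºC and -0.56 without the second. Without the first wild-type library at 20ºC the median was -0.42, and without the second -0.33. That members were called in wild type and none in mutants thus does not show that the genotypes differed.

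The choice of scaling moved the class along with all other genes. Under TMM, RLE (relative log expression), upper-quartile scaling and TMM factors estimated without the 81 genes, the median change in wild type at 25ºC against 20ºC was 0.54 in each, and between 48 and 51 members were called higher. Scaled by total count the median was 0.29 with 18 called higher and 3 lower (*rpl-36.A*, *rpl-41.1* and *rps-24*), and by total count without ribosomal RNA 0.31 with 27 higher and 2 lower (*rpl-41.1* and *rps-24*). Of all genes, 6.36% were called higher and 19.9% lower by total count, and 6.76% and 19.4% without ribosomal RNA. These scalings also shifted the median of all genes to -0.25 and -0.23. Relative to all genes the members' median was 0.54 under both, as under TMM. The members called higher were subsets of the 51 under each of these scalings.

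**Figure D5:**
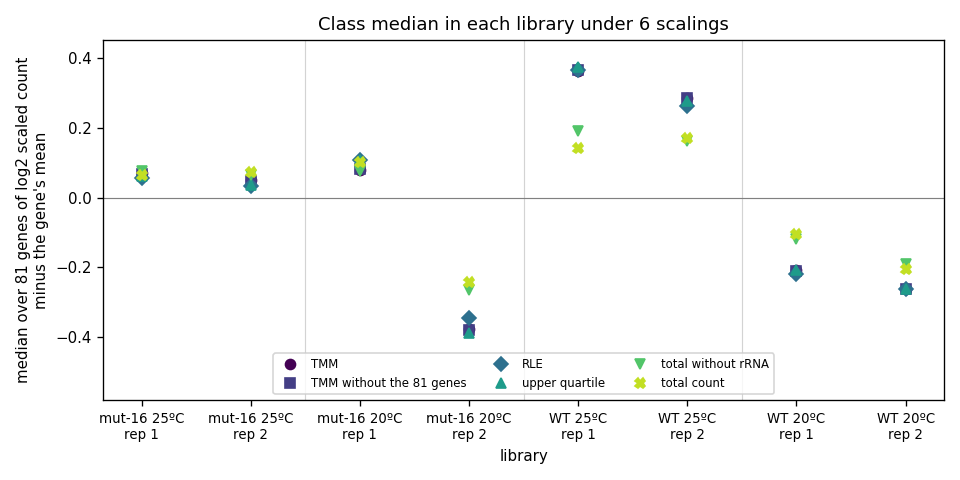
Median over the 81 genes of the log2 scaled count minus each gene's own mean, by library, under 6 scalings shown as different symbols. The 4 scalings that rest on the bulk of genes coincide, and the 2 total-count scalings draw wild type at 25ºC (0.14 and 0.17 under total count) and wild type at 20ºC (-0.11 and -0.20) towards 0.

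For *mut-16* mutants against wild type at 25ºC the median of the members was -0.26 under TMM, -0.09 by total count and -0.10 by total count without ribosomal RNA, where the median of all genes moved to 0.18 and 0.16. Relative to all genes it was -0.26 in each. By total count 18 members lay above 0, and *rpl-29*, *rpl-36.A* and *rps-24* were called higher in both (13.7% and 13.5% of all genes). *rpl-32* changed sign, to 0.07 by total count and 0.06 without ribosomal RNA. In the share of all counts, the log2 ratio of the group means was -0.06 for mutants against wild type at 25ºC and 0.23 for wild type at 25ºC against 20ºC, and with TMM-scaled totals as the denominator -0.24 and 0.48.

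The balance of the subunits changed little. Summed counts of the *rpl* genes, without the *rla* genes, were set against those of the *rps* genes. They were 1.31 and 1.32 times as high in mutants at 25ºC and 1.30 and 1.35 times in mutants at 20ºC. The ratios were 1.29 and 1.26 in wild type at 25ºC, and 1.31 and 1.26 in N2 kept at 20ºC. Both mutant groups lay above wild type at 25ºC, and the ranges of the other pairs of groups overlapped. In the comparison of temperature in wild type the median log2(fold change) was 0.51 for large-subunit genes and 0.57 for small-subunit genes.

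Ribosome-associated genes outside the naming rule were examined from a list of 3. *ubq-2*, which encodes ubiquitin fused to a large-subunit protein, had 3163 and 2976 CPM in wild type at 25ºC against 1906 and 1624 CPM at 20ºC (0.80 ± 0.17, adjusted p = 0.00369). *rack-1*, for a scaffold on the small subunit, had 4603 and 4389 CPM against 3009 and 2989 CPM (0.58 ± 0.14, adjusted p = 0.00875). *ubl-1*, for a ubiquitin-like protein fused to a small-subunit protein, had 1793 and 1719 CPM against 1410 and 1266 CPM (0.39 ± 0.14, adjusted p = 0.0652). None of the 3 was called in the other comparisons or in the interaction.

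Of 6 elongation factor genes, 3 were called higher in wild type at 25ºC and none lower (list median 0.35). Of all genes tested, 11.1% were called higher and 9.62% lower in that comparison. *eef-1A.1*, for the factor that delivers aminoacyl-tRNA, had 13304 and 13137 CPM against 8941 and 6519 CPM (0.77 ± 0.16, adjusted p = 0.00307). *eef-2*, for the translocation factor, had a log2(fold change) of 0.42 ± 0.14 (adjusted p = 0.0414) and *eef-1G* of 0.38 ± 0.13 (adjusted p = 0.0462). *eef-1A.2* was called higher in mutants at both temperatures (0.40 at 25ºC and 0.54 at 20ºC), where 7.68% and 2.68% of all genes were. Of 35 initiation factor genes 2 were called higher and 1 lower in wild type at 25ºC (list median -0.06), against the same 11.1% and 9.62% of all genes. They were *iff-2*, for a homolog of eIF5A (0.55), and *pab-1*, for poly(A)-binding protein (0.40), upward and *eif-1.A* downward (-0.83). *iff-2* was also called in the interaction (-0.78 ± 0.19, adjusted p = 0.0462).

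Of 69 mitochondrial ribosomal protein genes, 13 were called lower in wild type at 25ºC and none higher (9.62% and 11.1% of all genes, list median -0.18), with *mrpl-16* (-0.95), *mrpl-23* (-1.37) and *mrpl-11* (-0.79) of smallest adjusted p. In mutants against wild type at 25ºC 12 were called higher and none lower (7.68% and 12.5% of all genes, list median 0.16), *mrpl-11* (0.85), *mrpl-16* (0.89) and *mrps-15* (0.66) among them. Of 24 ribosome biogenesis genes 3 were called higher and 1 lower in wild type at 25ºC (11.1% and 9.62% of all genes, list median 0.07). *nog-1*, for a GTPase of large-subunit assembly, had 1.01 ± 0.16 and *lpd-7*, for a homolog of pescadillo, 0.65 ± 0.14, whereas *nol-16* had -0.78 ± 0.20. *nog-1* was called in the interaction as well (-0.91 ± 0.23, adjusted p = 0.0467). In mutants against wild type 4 biogenesis genes were called higher at 25ºC (7.68% of all genes) and 1 at 20ºC (2.68%). None was called lower (12.5% and 5.75% of all genes).

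Some markers of tissue and stage moved between the same groups. In wild type at 25ºC against 20ºC, 11.1% of all genes were called higher and 9.62% lower. Of 8 moulting genes, 5 were called lower and 1 higher in wild type at 25ºC, and their summed level was 563 and 741 RPM there against 1457 and 1320 at 20ºC. In mutants it was 1009 and 1212 at 25ºC against 1377 and 2203 at 20ºC. Of 8 genes of the hypodermis and cuticle 5 were called lower and 3 higher in wild type at 25ºC. Of 71 tested sperm genes 60 were called lower in mutants against wild type at 25ºC (12.5% of all genes) and 40 at 20ºC (5.75%). Their sums at 25ºC were 678 and 718 RPM in mutants against 2503 and 3185 in wild type. In wild type 16 of the 71 were called higher and 3 lower at 25ºC. Of 15 oocyte genes 14 were called higher in mutants at 25ºC against 20ºC (7.71% of all genes). In mutants against wild type 10 of the 15 were called lower at 20ºC (5.75% of all genes). At 25ºC 3 were called higher and 1 lower (7.68% and 12.5%). In wild type at 25ºC against 20ºC, calls among the other lists were 1 lower of 11 germline genes, 2 higher and 1 lower of 8 intestine genes, 2 higher and 1 lower of 8 muscle genes, 1 lower of 8 neuron genes and 3 lower of 6 vitellogenin genes. Beside the shares of all genes, the small counts among germline, intestine, muscle and neuron genes are not read as changes of a tissue. The vitellogenin calls were above the 9.62% of all genes called lower (list median -0.61), in a list of only 6. The part of these differences in stage and tissue in the levels of the ribosomal protein genes was not tested.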

How the data were processed

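Poly(A)-selected RNA of whole L4 animals was sequenced in 8 libraries, 2 in each of 4 groups. Per the labels and the study's methods, the authors trimmed reads with cutadapt and made expected counts with Salmon, summed per gene, as deposited. HISAT2 is also named. The strand setting of the counting is not given in the sources used here. Of 46453 names in a file, 189 matched no gene of the WBcel235 annotation and held at most 0.0587% of the counts.

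Expected counts were rounded and fitted in edgeR 4.0.16 (R 4.3.3) with TMM scaling, a low-count filter (minimum count 10, minimum total 15), 4 groups and no block, by the quasi-likelihood test. The p-values were adjusted by Benjamini-Hochberg over 13972 genes. The fit was tested on simulated data. The libraries held 9914054 to 13227929 counts. Alternatives were DESeq2 1.42.0, other scalings and filters, a replicate block, a fit of only the libraries compared, and leaving out each library. TPM were computed from the deposited counts and exon lengths.

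Named members were the 3 *rla* genes, genes that share a number, *rpl-32*, and the extremes of TPM, of adjusted p in wild type and of the replicate difference. That this class, its members and the lists were examined was decided with earlier results of these data known, although membership itself goes by gene name.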

Additional observations from a re-analysis of the deposited data

How the results depend on the processing

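The calls moved with the scaling, the fit and single libraries. For wild type at 25ºC against 20ºC, 51 members were called higher (11.1% of all genes). Total-count scaling gave 18 higher and 3 lower with a median of 0.29 (6.36% and 19.9% of all genes). Total count without ribosomal RNA gave 27 higher and 2 lower with a median of 0.31 (6.76% and 19.4%). The unfiltered fit gave 1 lower (8.04%), and a required absolute log2(fold change) above 1 left 0 higher (5.3%). For mutants against wild type at 25ºC, where none was called, 3 were called higher by total count (median -0.085, 13.7% of all genes) and 3 without ribosomal RNA (13.5%). DESeq2 called 1 higher (4.05%) and the unfiltered fit 2 (8.01%). With only the 4 libraries compared, 3 were called higher and 56 lower (13.5% and 18.4%). In the interaction DESeq2 called 2 lower (1.48% of the genes in its fit) and the unfiltered fit 3 (2.79%). The median there was -0.16 by total count and -0.15 without ribosomal RNA. With TMM-scaled totals the log2 ratio of class shares was 0.48 for wild type at 25ºC against 20ºC and -0.24 for mutants against wild type at 25ºC. *rpl-32* changed sign for mutants against wild type at 25ºC (0.075 by total count, 0.057 without ribosomal RNA), for the same at 20ºC (-0.018 without ribosomal RNA, -0.0019 with the replicate block) and in the interaction (0.070 by total count, 0.075 without ribosomal RNA). The cause was not tested.

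Leaving out each library in turn, members called higher ranged from 0 to 40 in mutants at 25ºC against 20ºC (median -0.023 to 0.45, *rpl-32* -0.057 to 0.64, log2 ratio of class shares -0.037 to 0.32) and from 9 to 60 in wild type, with 0 to 1 lower. For mutants against wild type, 0 to 2 were higher and 0 to 20 lower at 25ºC, and 0 to 2 were lower at 20ºC (median -0.17 to 0.37, *rpl-32* -0.36 to 0.38, log2 ratio of class shares -0.16 to 0.20). In the interaction 0 to 2 were lower (median -0.56 to -0.062, *rpl-32* -0.45 to 0.26).

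The replicate numbers were not taken as pairs, since deviations of same-numbered libraries correlated between -0.165 and 0.0731 over all genes. With the replicate block 51 members were called higher in wild type at 25ºC (10.2% of all genes) and no count of called members changed.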
